A study of Mus musculus with 5 samples.

Results

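The anti-Mullerian hormone system was followed in dissociated mouse ovaries through 4 genes, which are the hormone Amh, its own type II receptor Amhr2, and the type I receptors Bmpr1a and Acvr1 that Amhr2 works with. They are 4 of the 31053 genes in the deposited tables and were taken by name, and each was found once in every table. No rule on measured values picked them, but earlier results of these data were known when they were chosen. The ovaries came from untreated mice with the genotype label C57BL6/J, and 1 library was made at each age of 2, 3, 4, 5 and 6 wk. Trypsin was used to free the cells, stained dead cells were removed by flow sorting, and live cells went into droplet libraries of the 10x Genomics 3′ v3.1 kit. No cluster of germ cells was named, so the values describe somatic cells, and the number of mice behind a library is not given in the sources used here.

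AMH is a secreted hormone of the TGF-beta family, and in the ovary it is made by granulosa cells, the cells that surround and nurse the oocyte. The precursor is cut by proprotein convertases, and the mature dimer binds AMHR2, a receptor kinase that serves no other known ligand. AMHR2 then activates a type I receptor shared with the bone morphogenetic proteins, which phosphorylates SMAD1, SMAD5 and SMAD9 and raises targets such as the Id genes. The hormone is known for restraining the activation of dormant follicles and for lowering the response of growing follicles to follicle-stimulating hormone.

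The 5 libraries held 9471, 9253, 11077, 7779 and 10583 cells from 2 to 6 wk, with medians of 12424, 9056, 9581, 11406 and 11881 UMIs per cell, a UMI being 1 counted RNA molecule. Of the cell barcodes, 273 occurred in more than 1 library. Of the 48163 cells, 18256 fell in granulosa-like clusters, named from markers such as Inha, Nr5a2 and Serpine2, whose summed level was 6767 to 8646 CPM over the libraries, CPM being UMIs scaled to the summed UMIs of the same cells, against 672 to 1443 CPM in the other cells. A second clustering split the granulosa-like cells into 296 primordial-like, 2380 primary-like, 3287 antral-like and 3355 remodeling-like cells, with 3327 S phase-like and 1790 G2/M-like cells and 3821 cells left unnamed. The marker sums of some groups overlapped those of the rest over the libraries. They were 4506 to 10139 against 2559 to 5449 CPM for antral-like cells. For remodeling-like cells they were 1710 to 7743 against 1202 to 2182 CPM. The members and the genes of their pathway were kept out of the genes used for clustering. A level below is the UMIs of a gene summed over the cells of a group in 1 library, scaled to the total UMIs of those cells. Groups with under 30 cells in a library were left out, so primordial-like cells have values at 2, 3 and 4 wk alone. No age has a replicate, so no test was run, brackets give 95% counting intervals, and a mean ± SD is over libraries of different ages.

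The members lie on 4 chromosomes of the GRCm38 genome. Amh is a gene of 5 exons at chr10:80805243-80807648 on the plus strand. The gene Sf3a2, which codes for a splicing factor, ends 318 bp before the start of Amh on the same strand, so its level is given beside that of Amh where the ages are compared. Amhr2 has 11 exons at chr15:102445367-102454633 on the plus strand. The type I receptors are long genes on the minus strand, Bmpr1a with 13 exons at chr14:34410734-34503341 and Acvr1 with 11 exons at chr2:58388644-58567157. An antisense gene, Gm17110, overlaps Bmpr1a, and Gm17409 lies inside Acvr1 on the other strand, so reads of such pairs are told apart only by strand.

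The 250 bases before the start site are shown for the receptors, to set the promoter of the cell-restricted receptor beside those of the broadly found ones. The RefSeq promoter set (GRCm38.p6) matched 3 of the 4 members. Its start sites for Bmpr1a and Acvr1 lie inside the gene spans given above, and so do the stretches shown for them. Capitals mark matches on either strand to AAGGTCA, a site of orphan nuclear receptors such as SF-1, to the GC box GGGCGG and to CCAAT.
Amhr2: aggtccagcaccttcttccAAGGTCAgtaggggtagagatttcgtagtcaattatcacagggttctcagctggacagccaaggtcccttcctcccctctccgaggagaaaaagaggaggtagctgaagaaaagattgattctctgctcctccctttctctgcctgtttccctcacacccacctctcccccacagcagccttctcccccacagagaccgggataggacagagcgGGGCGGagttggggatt
Bmpr1a: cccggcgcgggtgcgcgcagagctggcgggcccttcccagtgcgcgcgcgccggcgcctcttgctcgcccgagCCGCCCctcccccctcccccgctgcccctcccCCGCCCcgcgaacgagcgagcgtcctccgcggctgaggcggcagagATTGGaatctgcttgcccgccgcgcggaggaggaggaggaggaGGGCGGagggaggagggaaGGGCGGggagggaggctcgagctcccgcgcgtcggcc
Acvr1: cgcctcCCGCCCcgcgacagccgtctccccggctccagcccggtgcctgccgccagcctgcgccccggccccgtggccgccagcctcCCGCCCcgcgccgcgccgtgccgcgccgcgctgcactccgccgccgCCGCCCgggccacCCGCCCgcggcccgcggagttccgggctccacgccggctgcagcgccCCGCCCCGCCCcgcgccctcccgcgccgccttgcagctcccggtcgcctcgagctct
The Amhr2 promoter spans chr15:102445117-102445366, has 5 CpG dinucleotides against a median of 6 over 32841 promoters, and holds 1 match to AAGGTCA 231 to 225 bases before the start. That motif occurs in 4.08% of all promoters of this length. The Amhr2 promoter also holds 1 GC box, 17 to 12 bases before the start. The Bmpr1a promoter, chr14:34502547-34502796 read on the minus strand, has 36 CpG, more than 97.4% of all promoters, with 4 GC boxes and 1 CCAAT on the opposite strand. The Acvr1 promoter, chr2:58566829-58567078 on the minus strand, has 46 CpG, more than 99.7% of promoters, and 6 GC boxes, of which a neighbouring pair overlaps. A GC box was found in 32.7% and CCAAT in 33.9% of all promoters. The letters AGATAA, bound by GATA4 and its relatives, were in none of the 3 promoters and in 9.99% of all. The TATA box, searched as TATAAA, was in none of the 3 either, and in 12.4% of all. A match is a run of letters and no evidence that a factor binds there.

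Amh, the hormone, was concentrated in granulosa cells. In granulosa-like cells its level was 573, 798, 538, 308 and 252 CPM at 2, 3, 4, 5 and 6 wk. In stromal-like cells it was 17.1, 19.7, 26.9, 5.13 and 7.91 CPM. Every granulosa value lay above every stromal value, and the ratio within a library ran from 20.0- to 60.0-fold, a mean log2 difference of 5.13 ± 0.58 (SD, n = 5 libraries). With called doublets left out the mean was 5.81. Granulosa-like cells held 87.7% to 94.9% of all Amh UMIs of a library while making up 32.2% to 47.0% of its cells.

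Hematopoietic-like cells, which are blood-derived and not known to make AMH, gave 68.9, 182, 122, 24.2 and 65.4 CPM of Amh. They serve below as the level to set weak Amh signals against, and what gives rise to these UMIs was not tested. Granulosa-like cells exceeded them by 3.85- to 12.7-fold, with a mean log2 difference of 2.59 ± 0.74 (SD, n = 5). Inha, the inhibin alpha subunit that marks granulosa cells, gave a second yardstick. The number of Amh UMIs per Inha UMI in stromal-like cells was 0.659 to 1.38 times that in the granulosa-like cells of the same library, with a median of 1.14. The medians were 1.04 in surface epithelial-like, 1.02 in blood endothelial-like and 0.912 in smooth muscle-like cells. They were lower in pericyte-like (0.543) and theca-like cells (0.387) and higher in hematopoietic-like cells (1.68, up to 2.12). Some ranges were wide, at 0.036 to 1.11 in theca-like and 0.049 to 1.57 in surface epithelial-like cells. Inha itself reached 872 CPM in theca-like cells, and its part in their low ratio was not tested. In absolute level, no named cell class other than granulosa stood above hematopoietic-like cells in every library. Lymphatic endothelial-like cells ranged from 2.22 CPM, which is 1 UMI, to 242 CPM and did not separate from hematopoietic-like cells.

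**Figure D1:**
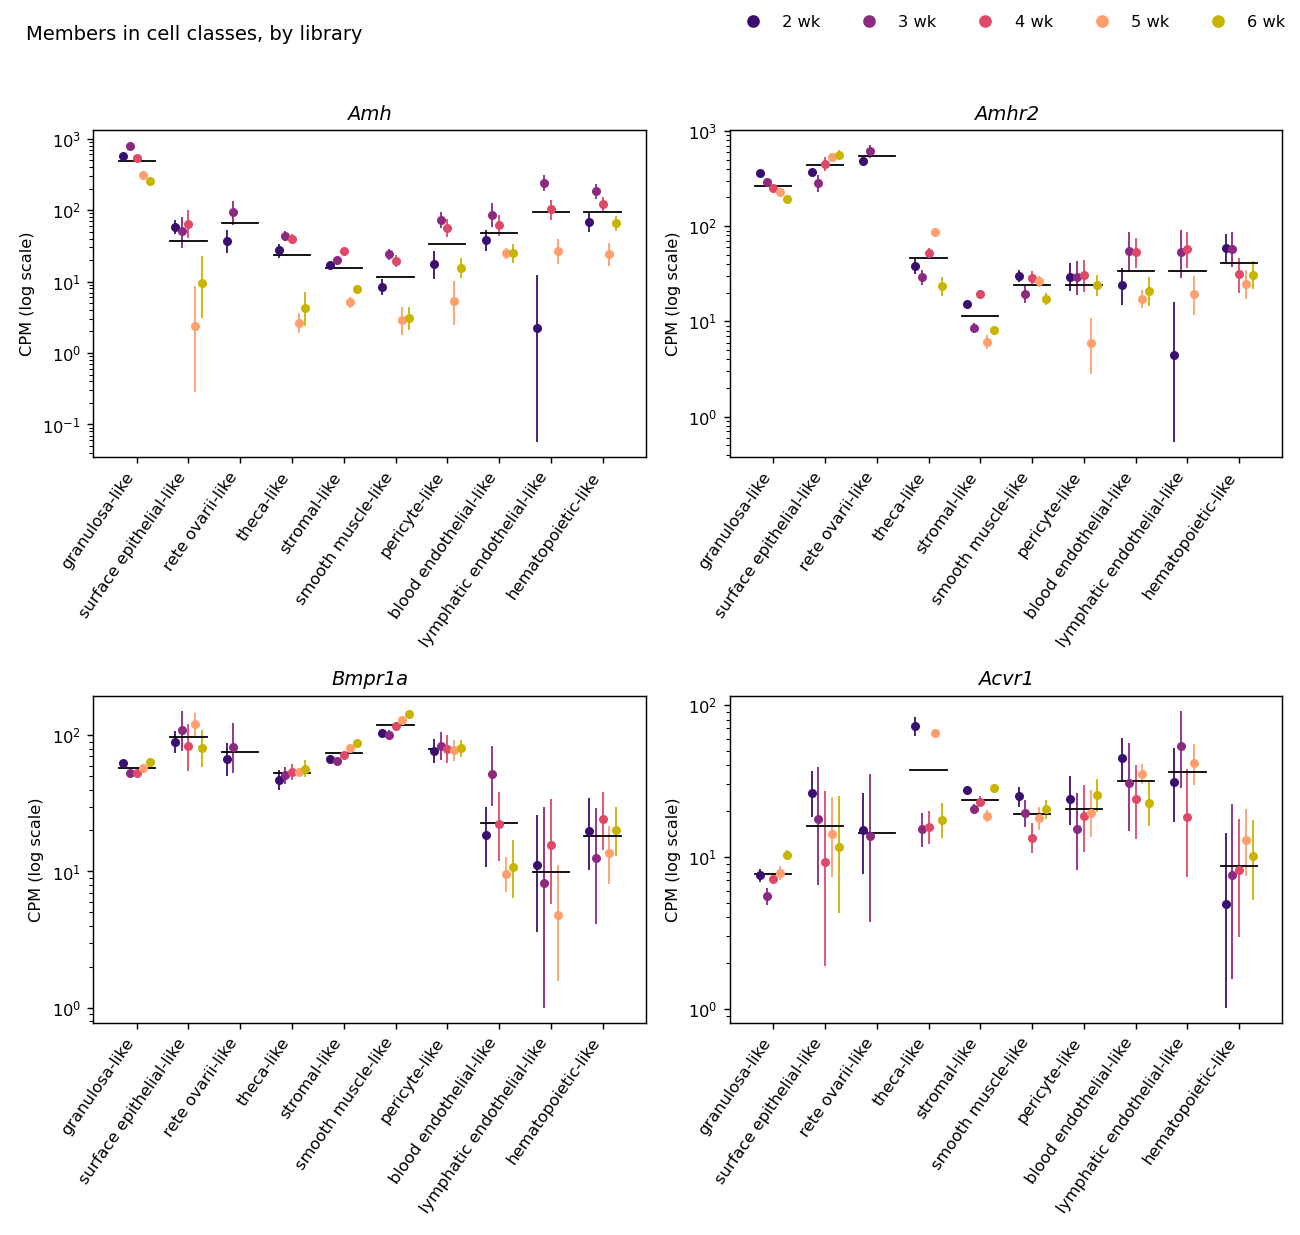
Level of each of the 4 genes (CPM, log scale) by marker-defined cell class, with 1 point per library coloured by age, 95% counting intervals as vertical lines and the mean over libraries as a black line. Amh stands highest in granulosa-like cells, Amhr2 in granulosa-like, surface epithelial-like and rete ovarii-like cells, Bmpr1a in smooth muscle-like cells, and Acvr1 is lowest in granulosa-like and hematopoietic-like cells.

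Within the granulosa, Amh rose from the primordial-like to the primary-like group and was lower again in antral-like and remodeling-like cells. No cluster was named secondary-like, so the stage between primary and antral follicles has no level here. Primordial-like cells, the flat granulosa cells of resting follicles, had 26.4 CPM [18.1–37.3] at 2 wk, 89.5 CPM at 3 wk and 85.2 CPM at 4 wk. These values were below hematopoietic-like cells in 3 of 3 libraries, so Amh did not stand above that level there. Primary-like cells had 697, 974, 776, 569 and 507 CPM. The groups did not overlap, and the primary-like level was 9.11- to 26.4-fold the primordial-like level, a mean log2 difference of 3.78 ± 0.82 (SD, n = 3 libraries). The size rests on where the clusters are drawn, since the mean was 1.73 with the members among the clustering genes and 1.30 with the libraries merged without integration.

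Dividing granulosa cells carried Amh at levels near those of primary-like cells. S phase-like cells, defined by replication genes such as Mcm3 and Hells, had 689, 977, 1047, 604 and 436 CPM, and were above primary-like cells in 3 of 5 libraries, so that these neighbours in the order were not separated. G2/M-like cells had 659, 694, 639, 436 and 279 CPM and were below primary-like cells in 5 of 5 libraries. The top cluster was 1 of S phase-like cells led by Calb1 and Mcm4, with 763, 1061, 1261, 812 and 610 CPM. Next came an unnamed cluster led by Igfbp5 and Shbg, the second being the androgen carrier protein gene, with 671, 1016, 959, 606 and 531 CPM. The Calb1/Mcm4 cluster was above it in each of the 5 libraries, though by a mean log2 difference of only 0.25 ± 0.15 (SD).

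Antral-like cells were named from markers such as Inhba, Fst and Vpreb3, and the paper counted no antral follicles before 3 wk. The name thus does not show that the 2 wk cells lined the fluid-filled cavity of an antral follicle. Antral-like cells had 206, 365, 313, 90.7 and 65.5 CPM of Amh. They lay below primary-like cells in every library, at 0.129 to 0.403 of the level, a mean log2 difference of -2.02 ± 0.74 (SD, n = 5). Remodeling-like cells were named from markers such as Ghr, Lox, Pik3ip1, Cald1 and Mmp11. The paper reports Ghr, Cald1 and Mmp11 as higher in antral granulosa cells of the later growth wave than of the early one. The name thus does not show that these cells lay in remodeling and not in antral follicles. Remodeling-like cells had 163, 326, 109, 28.8 and 26.6 CPM of Amh. That is 0.318 to 0.893 of the antral-like level, lower in 5 of 5 libraries, with a mean log2 difference of -0.99 ± 0.69 (SD). The antral-like difference was -1.05 at a coarser clustering, and the remodeling-like one -3.04 in libraries merged without integration. The remodeling-like level was above that of hematopoietic-like cells in 3 of 5 libraries, and at 5 and 6 wk it stood at 28.8 against 24.2 and 26.6 against 65.4 CPM. The antral-like level was 1.001 to 3.75 times the hematopoietic-like level.

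A further cluster was left unnamed and was led by Akap12 and by Gatm, a primordial marker. Its Amh level was 244, 613, 464, 206 and 380 CPM, which lies between the primordial-like and the primary-like group. It exceeded primordial-like cells by 5.44- to 9.23-fold in 3 of 3 libraries and stayed below primary-like cells in 5 of 5. Its Amhr2 level, by contrast, was 574, 499, 475, 579 and 548 CPM, the highest mean among the 17 granulosa clusters, though its values overlapped those of primordial-like cells.

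**Figure D2:**
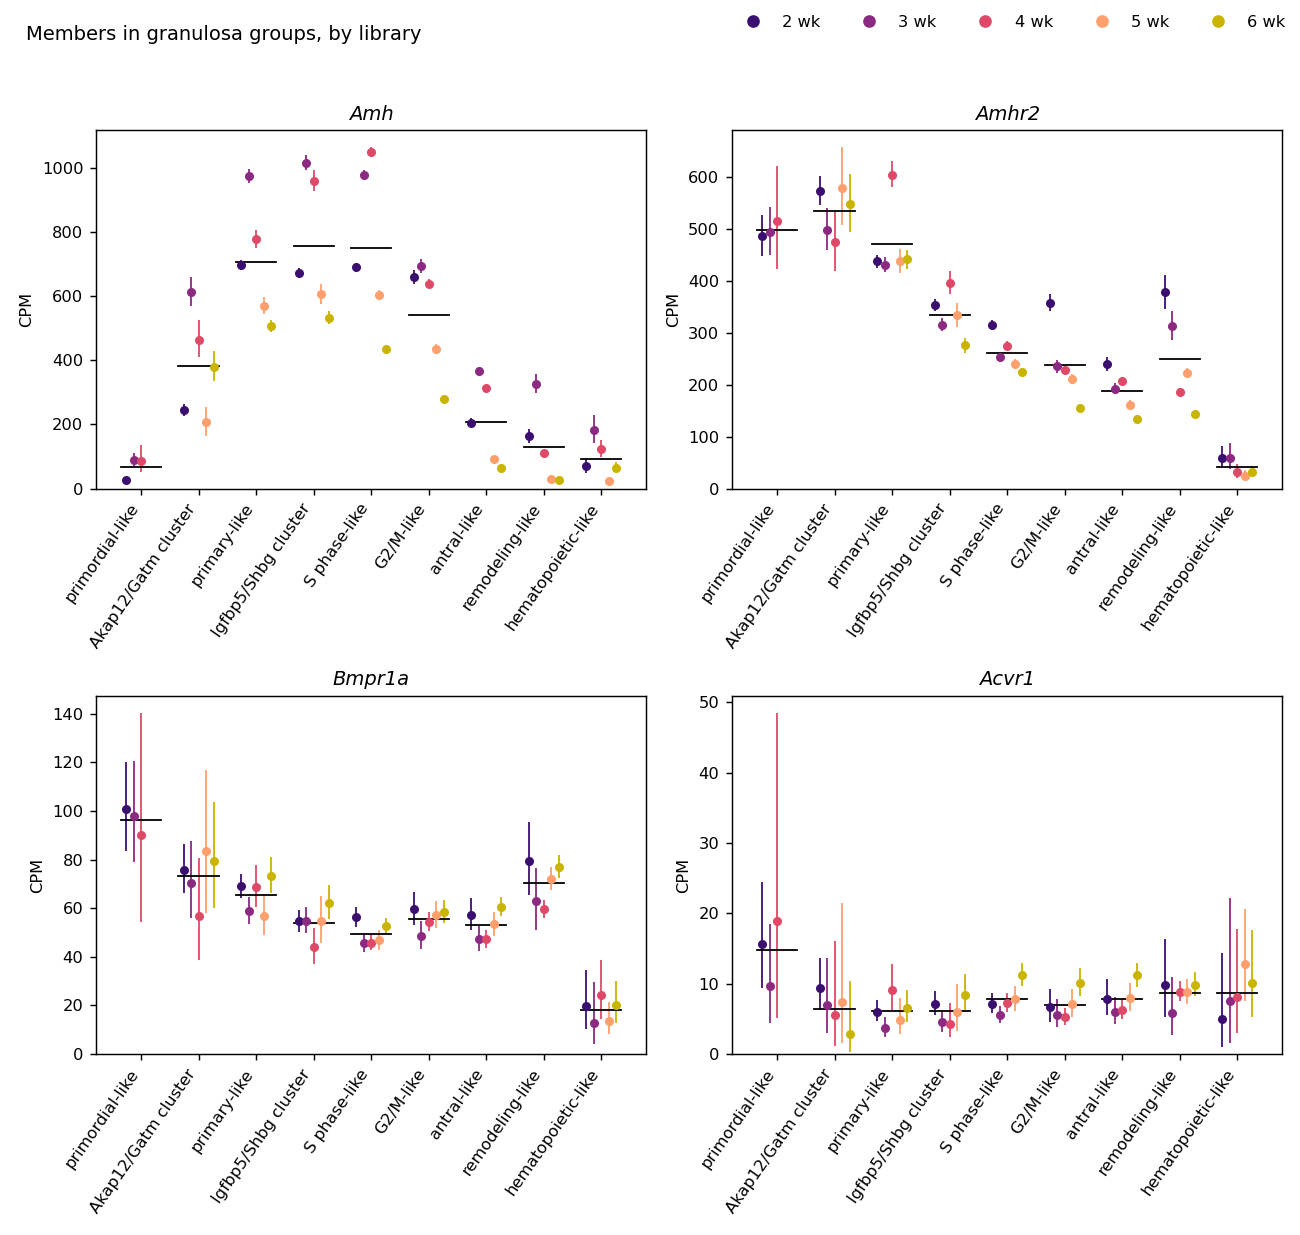
Level of the 4 genes (CPM) in the granulosa groups, and in hematopoietic-like cells for reference, with 1 point per library coloured by age, 95% counting intervals as vertical lines and the mean as a black line. Amh climbs from primordial-like to primary-like and S phase-like cells and falls in antral-like and remodeling-like cells, while Amhr2 starts high in primordial-like cells and is lowest in antral-like cells.

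Amhr2, the type II receptor, had 362, 291, 249, 229 and 195 CPM in granulosa-like cells from 2 to 6 wk. In stromal-like cells its mean was 11.4 CPM, and the ratio was 12.9- to 37.4-fold, a mean log2 difference of 4.63 ± 0.60 (SD, n = 5). Granulosa-like cells held 81.3% to 87.6% of the Amhr2 UMIs. Of the 4 members, Amh and Amhr2 were at least 2-fold higher in granulosa-like than in stromal-like cells in every library, where 9.36% of 14052 genes were, and Acvr1 was at least 2-fold lower, where 10.8% were.

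The receptor was also high in epithelia in which Amh was below hematopoietic-like cells in every library. Surface epithelial-like cells, the Upk3b- and Lrrn4-positive sheet that covers the ovary, had 368, 282, 449, 538 and 555 CPM of Amhr2. They stood above granulosa-like cells in 4 of 5 libraries, with the counting interval above 1 in 3. They exceeded stromal-like cells by 23.3- to 87.7-fold, a mean log2 difference of 5.35 ± 0.88 (SD, n = 5). Rete ovarii-like cells, the Pax8-positive tubules at the ovarian hilum, were numerous enough at 2 and 3 wk alone and had 487 and 609 CPM, above surface epithelial-like cells in both. The markers of surface epithelial-like cells were sharp, at 3852 to 5425 CPM against 0.965 to 4.04 CPM in other cells. Those of rete ovarii-like cells summed to 2680 to 2891 CPM against 26.5 to 55.9 CPM. Per Inha UMI, Amhr2 was 12.6 to 64.7 times as frequent in surface epithelial-like cells as in granulosa-like cells of the same library. For Amh the median of that ratio in these cells was 1.04.

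Theca-like cells, which make androgens, had 38.2, 29.1, 52.2, 87.3 and 23.4 CPM of Amhr2, against 59.1, 58.1, 31.2, 25 and 31.0 CPM in hematopoietic-like cells. Theca-like cells were higher at 4 and 5 wk, with the counting interval above 1 in both, and lower at the other ages. Split further, late theca-like cells, marked by the steroid enzyme gene Cyp17a1, had 38.2, 23.9, 46.4, 96.4 and 30.1 CPM. Early theca-like cells, marked by the Hedgehog target genes Hhip and Ptch1, had 12.3, 5.80, 9.28, 6.19 and 5.11 CPM. The summed markers of early theca-like cells, at 536 to 1183 CPM against 354 to 556 CPM in the rest, did not set them sharply apart. Late theca-like cells were higher in 5 of 5 libraries, by 3.11- to 15.6-fold, a mean log2 difference of 2.50 ± 0.88 (SD). Their Amhr2 UMIs per Inha UMI were 1.07 to 4.45 times those of granulosa-like cells, above 1 in each of the 5 libraries. The same held in early theca-like (1.65 to 4.18), stromal-like (1.06 to 1.82) and smooth muscle-like cells (2.60 to 14.8). This ratio thus does not set late theca-like cells apart. In level, late theca-like cells were above hematopoietic-like cells at 4 and 5 wk alone. Hematopoietic-like cells are not the floor for Amhr2, with a mean of 40.9 CPM against 11.4 CPM in stromal-like cells. An Amhr2 UMI was seen in a mean of 44.6% of late theca-like, 8.34% of early theca-like and 8.85% of hematopoietic-like cells, at depths that were not matched.

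Along the granulosa groups Amhr2 ran in a different order from Amh. Primordial-like cells had 487, 495 and 516 CPM at 2, 3 and 4 wk, and primary-like cells 438, 431, 605, 438 and 441 CPM. These groups overlapped, with ratios of 0.872 to 1.17, and were not separated. S phase-like cells had 315, 253, 276, 239 and 225 CPM and lay below primary-like cells in 5 of 5 libraries, a mean log2 difference of -0.84 ± 0.25 (SD), which differs from Amh, for which these groups were not separated. Antral-like cells had 240, 192, 208, 162 and 135 CPM, 0.306 to 0.547 of the primary-like level, with a mean log2 difference of -1.35 ± 0.33 (SD, n = 5). The groups did not overlap.

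Remodeling-like cells had 378, 313, 187, 223 and 143 CPM of Amhr2, above antral-like cells in 4 of 5 libraries, while their Amh was below antral-like cells in all 5. The clusters called remodeling-like were not alike. The one led by H19, Angpt2 and Pamr1 had a mean of 356 CPM ± 42.6 (SD, n = 5), and the one led by Ghr, Cald1 and Lox had 96.6 CPM ± 17.8 (SD, n = 3 libraries with enough cells). Within a library the second had 0.270 to 0.288 of the level of the first, a mean log2 difference of -1.83 ± 0.05 (SD), so the split was close to the same at 4, 5 and 6 wk.

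Bmpr1a, the type I receptor through which BMP2 and BMP4 also act, was spread over the mesenchyme and the epithelia. Smooth muscle-like cells, marked by Myh11 and Cnn1, had the highest mean with 103, 100.5, 117, 129 and 144 CPM. Stromal-like cells had 67.0, 65.1, 71.6, 80.4 and 87.5 CPM, and the ratio of smooth muscle-like to stromal-like cells stayed between 1.54 and 1.64 in all libraries, a mean log2 difference of 0.67 ± 0.04 (SD). Surface epithelial-like cells had 89.7, 110, 83.1, 121 and 80.9 CPM and overlapped smooth muscle-like cells. Granulosa-like cells had 62.2, 52.6, 52.9, 58.0 and 63.4 CPM, below stromal-like cells in 5 of 5 libraries, a mean log2 difference of -0.36 ± 0.16 (SD). Through their number they still held 40.5% to 55.2% of the Bmpr1a UMIs. The means were lowest in lymphatic endothelial-like cells at 9.97 CPM and hematopoietic-like cells at 18.1 CPM. Granulosa-like cells were at least 2-fold above hematopoietic-like cells in every library for Amh, Amhr2 and Bmpr1a, as were 9.16% of 13324 genes, with 8.6% at least 2-fold lower and no member among those.

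Across the granulosa groups Bmpr1a varied little. Its means were 96.2 CPM ± 5.59 in primordial-like (SD, n = 3), 70.1 ± 8.68 in remodeling-like, 65.4 ± 7.12 in primary-like, 55.7 ± 4.35 in G2/M-like, 53.2 ± 5.90 in antral-like and 49.4 ± 4.80 CPM in S phase-like cells (SD, n = 5). Primary-like cells lay below primordial-like cells in 3 of 3 libraries, with a mean log2 difference of -0.56 ± 0.18 (SD). Remodeling-like cells lay 1.26- to 1.39-fold above antral-like cells in 5 of 5, a mean log2 difference of 0.40 ± 0.06 (SD). The direction was the same in all libraries, with differences far smaller than those of Amh.

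Acvr1, also called ALK2, which serves several bone morphogenetic proteins as well, was the member least found in granulosa cells. Granulosa-like cells had 7.59, 5.49, 7.20, 7.84 and 10.3 CPM, which was not separated from the hematopoietic-like mean of 8.72 CPM ± 2.96 (SD, n = 5). Stromal-like cells had 27.4, 20.7, 23.0, 18.7 and 28.4 CPM and blood endothelial-like cells 44.7, 30.7, 24.0, 35.3 and 22.7 CPM. Granulosa-like cells had 0.266 to 0.420 of the stromal-like level, a mean log2 difference of -1.63 ± 0.27 (SD), with no overlap. Among the stages the means ran from 6.05 CPM in primary-like to 14.8 CPM in primordial-like cells, the second resting on 19, 9 and 4 UMIs.

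In the mesenchyme the Hoxd9-like stromal cells, whose posterior Hox genes mark a region of the stroma, had more Acvr1 than early theca-like cells. They had 40.2, 35.2, 33.1, 28.5 and 38.7 CPM against a mean of 20.1 CPM ± 3.60 (SD, n = 5) in early theca-like cells, a 1.59- to 2.10-fold difference with the counting interval above 1 in 5 of 5 libraries. The mean log2 difference was 0.81 ± 0.15 (SD). Hoxd9-like cells were not separated from Pi16/Col14a1-like stromal cells. The mean log2 difference there was 0.30 ± 0.27 (SD), with the counting interval above 1 in 0 of 5 libraries. The Hoxd9-like mean of 35.1 CPM was also below the late theca-like mean of 50.8 CPM. Late theca-like cells were uneven, with 131, 19.0, 19.0, 70.5 and 14.5 CPM of Acvr1. In the same cells Cyp17a1 was at 2678, 199, 703, 3462 and 1119 CPM, so both genes were highest in the 2 and 5 wk libraries. The part of Cyp17a1-rich cells in the Acvr1 values was not tested.

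The hormone and its receptor were found together in most primary-like cells. A UMI of both Amh and Amhr2 was present in a mean of 94% ± 3.69 of primary-like cells, 88.0% ± 7.05 of S phase-like cells and 46.5% ± 17.9 of antral-like cells (SD, n = 5 libraries). The share was 23.7% ± 5.98 of primordial-like cells (SD, n = 3) and 32.3% ± 17.9 of remodeling-like cells. Hematopoietic-like cells gave 5.70% ± 3.27, at library medians of 4989 to 8596 UMIs per cell against 8516 to 16341 in primary-like and 12811 to 17873 in antral-like cells.

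Because depth differed, each cell was also thinned to 3000 UMIs, which left out 13 primary-like, 114 antral-like and 125 hematopoietic-like cells with fewer. The share then was 55.6% in primary-like, 39.6% in S phase-like, 14.2% in antral-like, 11.5% in remodeling-like, 11.8% in primordial-like and 1.37% in hematopoietic-like cells. The order of primary-like, S phase-like and antral-like cells was kept, and primordial-like and remodeling-like cells were not separated. Single genes split the early stages. Thinned, Amhr2 was seen in 75% of primary-like and 73.0% of primordial-like cells, and Amh in 73.5% and 15.9%. The joint shares were not set against those that the single shares would give by themselves, so they show no link between the genes. In surface epithelial-like cells Amhr2 was seen in 64.5% and Amh in 3.20% of thinned cells, the second below the 7.42% of hematopoietic-like cells.

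**Figure D3:**
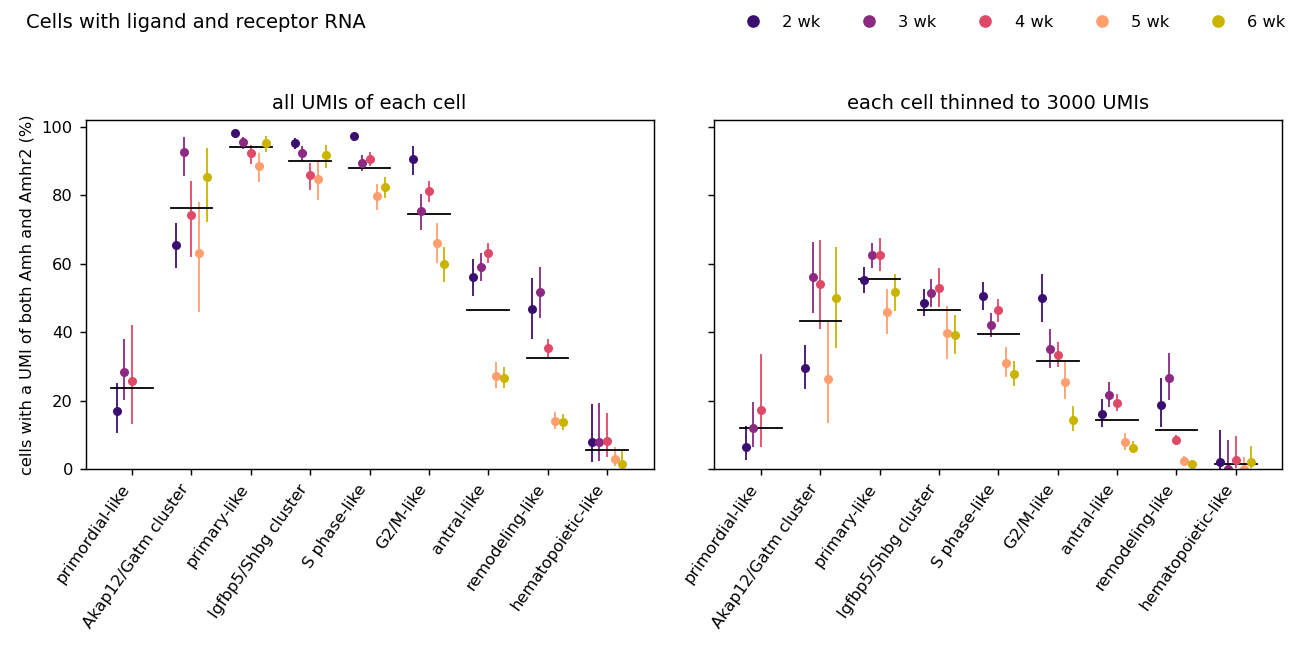
Share of cells (%) with a UMI of both Amh and Amhr2 by group, from all UMIs and after thinning each cell to 3000 UMIs, with 1 point per library, 95% binomial intervals as vertical lines and the mean as a black line. Primary-like cells are highest at either depth, with means of 94% and 55.6%, and hematopoietic-like cells are at 5.70% and 1.37%.

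Amh was unevenly spread over antral-like cells. At 2 wk 41.0% of antral-like cells had no Amh UMI, and at 5 wk 69.96% had none. The 10% of antral-like cells with the most Amh held 47.9%, 43.9%, 47.7%, 76.3% and 73.4% of its UMIs from 2 to 6 wk. In S phase-like cells the top 10% held 25.2% to 39.1%. Shares of this kind also grow when fewer UMIs are counted per cell, and they were not matched for level or depth. They thus do not show that the spread itself differs between these groups or ages. Within primary-like cells, those with Amh above the middle of their library had 1.02 to 1.21 times the Amhr2 of the others, with the counting interval above 1 in 3 of 5 libraries. The same split gave 1.21 to 1.45 in S phase-like and 1.13 to 1.49 in antral-like cells, with the interval above 1 in 5 of 5 libraries. In antral-like cells it was uneven at 5 wk (164 against 382 cells) and 6 wk (253 against 589 cells). At 5 wk it parted cells with an Amh UMI from cells without. These 2 libraries gave the largest antral-like ratios, 1.42 and 1.49, and the 5 wk median depths were 20711.5 against 14590 UMIs. S phase-like cells pool 3 clusters, with mean Amhr2 of 325 CPM in the one highest in Amh and 241 and 247 CPM in the others. Antral-like cells pool 2 clusters. The part of this pooling in the ratios was not tested. In the single Igfbp5/Shbg cluster the split gave 1.07 to 1.26, with the interval above 1 at every age but 4 wk. Cells with more Amh thus had somewhat more Amhr2 in these groups. Their median UMIs per cell were higher in every library of the primary-like group and in 4 of 5 libraries of the antral-like group. The same split gave 1.05 to 1.23 for Inha in primary-like cells, so the rise was not particular to Amhr2 there. Inha gave 0.718 to 0.959 in S phase-like and 0.574 to 1.13 in antral-like cells.

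The ages were compared within a group, since the mix of stages shifts with age. The paper takes antral granulosa cells at 2 wk for an early growth wave and nearly all of those at 5 wk for a later one. For the other groups the labels give age alone. The level of Amh in granulosa-like cells was 1.86 times as high at 2 wk as at 5 wk [1.82–1.90]. In primary-like cells the ratio was 1.22 [1.16–1.29] and in antral-like cells 2.27 [2.06–2.49]. The ratio past 2-fold in antral-like cells stands beside 3.06% of 6887 genes that were at least 2-fold higher at 2 wk and 3.21% that were lower. No other member passed 2-fold there. None did so in S phase-like cells, where Amh had a ratio of 1.14 and 3.7% of 8630 genes were higher and 2.64% lower, or in primary-like cells, where 1.22% of 7369 genes were higher and 1.04% lower. In the Calb1/Mcm4 cluster of dividing cells the ratio was 0.941. The remodeling-like group held different clusters at the 2 ages, with 120 of 128 cells in the H19/Angpt2 cluster at 2 wk and 196 of 788 at 5 wk, so it is not compared as a whole. Hematopoietic-like cells gave a ratio of 2.85. The antral-like ratio turned round to 0.107 when the libraries were merged without integration, so it rests on how the antral-like cells are chosen. The paper counted no antral follicles before 3 wk, so antral-like cells of the 2 ages may also differ in follicle stage, which was not tested.

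Amhr2 was at 1.58 times the 5 wk level in granulosa-like cells at 2 wk, at 1.48 in antral-like cells and at 0.9999 [0.943–1.06] in primary-like cells, where it was alike at the 2 ages within counting error. Outside the granulosa its ratios went both ways. They were below 1 in surface epithelial-like (0.684) and theca-like cells (0.437). In hematopoietic-like, early theca-like and stromal-like cells the 2 wk level was above the 5 wk level. Stromal-like cells had 8.57 to 19.3 CPM of Amhr2 at 2 to 4 wk and 6.13 to 8.07 CPM at 5 and 6 wk. Bmpr1a gave 1.07 in granulosa-like, 0.833 in stromal-like and 0.803 in smooth muscle-like cells. Each age is 1 library, so these ratios compare libraries and not ages as such.

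The tables of 2, 3 and 4 wk were made with Cell Ranger 3.1.0 and those of 5 and 6 wk with 6.0.1, so software and age cannot be told apart. The mean of 5 and 6 wk over the mean of 2 to 4 wk was 0.440 for Amh in granulosa-like cells and 0.659 in primary-like cells. For Sf3a2, the upstream neighbour of Amh, it was 0.511 and 0.649, and in hematopoietic-like cells 0.490 against 0.361 for Amh. For Inha, another abundant granulosa gene, it was 0.883 in granulosa-like and 0.779 in primary-like cells, and for Amhr2 it was 0.705 and 0.895. Amh and its neighbour were thus lower together in the later tables, and the part of the software in this was not tested.

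**Figure D4:**
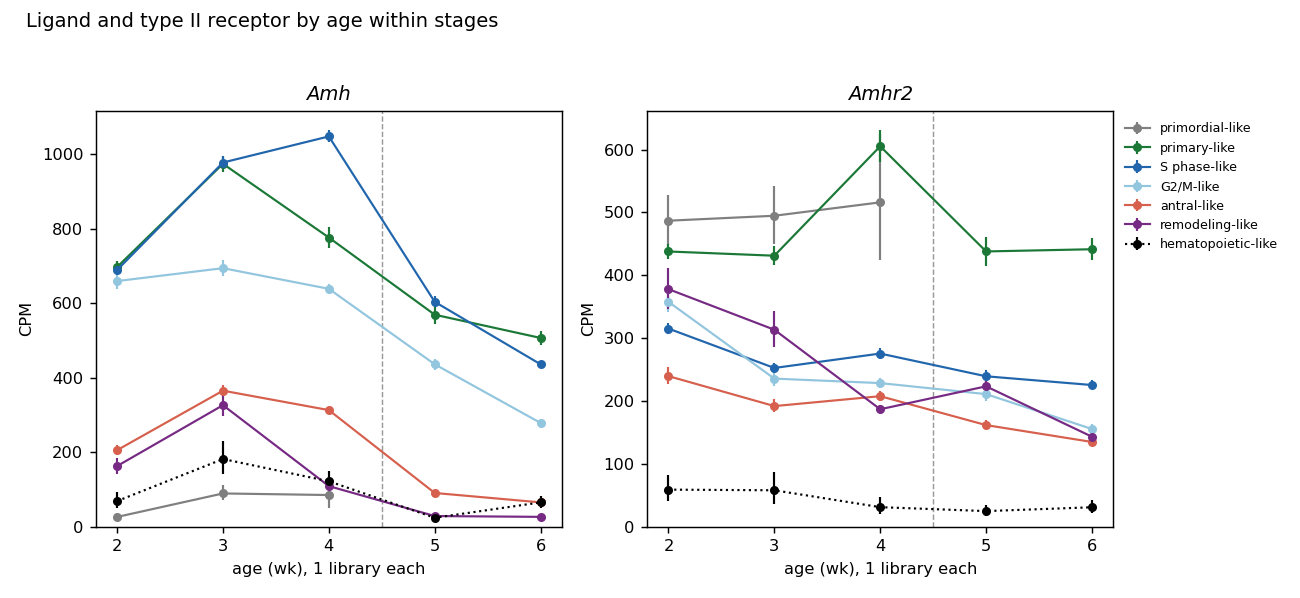
Level of Amh and Amhr2 (CPM) at each age from 2 to 6 wk in granulosa groups, with 95% counting intervals, 1 library per age, hematopoietic-like cells dotted in black, and a dashed line where the software version changes. Amh in antral-like cells is at 206 to 365 CPM up to 4 wk and at 90.7 and 65.5 CPM after it, while Amhr2 in primary-like cells stays between 431 and 605 CPM.

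The 33 other genes of the pathway were read in the same groups. Between antral-like and primary-like cells 31 could be compared with at least 200 UMIs, and 2 were at least 2-fold higher and 3 lower in every library, beside 2% of 10849 genes higher and 3.05% lower. The type I receptor Bmpr1b, which binds growth differentiation factors, was 2.78- to 4.53-fold higher in antral-like cells. The type II receptor Bmpr2 was 2.07- to 4.39-fold higher. Among those lower, Smad3 of the activin branch was at 0.156 to 0.392 of the primary-like level, Pcsk6, a convertase that can cut AMH, at 0.0176 to 0.197, and Wt1, a transcription factor that acts on Amh and Amhr2, at 0.0706 to 0.217. Amh was the 1 member called lower. The median ratio of the listed genes was 0.931 against 0.923 for all genes, and without the 2 wk library 5 genes were lower in place of 3.

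Between primary-like and primordial-like cells 24 of the 33 could be compared, beside 3.4% of 8811 genes at least 2-fold higher and 4.31% lower in every library. Amh and Nr0b1, a nuclear receptor gene, were higher, Nr0b1 by at least 5.38-fold since it had no UMI in 1 primordial-like library. Of the Id targets, Id2 was at 0.232 to 0.340 and Id3 at 0.240 to 0.377 of the primordial-like level. The mean of Id3 was 1051 CPM in primordial-like, 321 in primary-like, 452 in antral-like and 717 CPM in remodeling-like cells, so it was lowest in the group with the most Amh among these. Id2 was lowest there too, at 33.8 CPM. Id1, which was compared but not called, was not, with 106 CPM in primary-like and 84.3 CPM in antral-like cells. Id genes also answer to the other ligands of the type I receptors. The Smads showed no such change, with 0 of 6 compared past 2-fold in either direction. Without the 2 wk library no listed gene was called higher.

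Between remodeling-like and antral-like cells 0 of 31 listed genes passed 2-fold in every library, where 1.93% of 11021 genes were higher and 0.681% lower. Without the 4 wk library 2 listed genes were higher. The list had a median ratio of 1.34 against 1.04 for all genes. Wt1 had a mean of 46.1 CPM ± 20.7 in antral-like and 145 CPM ± 82.6 in remodeling-like cells (SD, n = 5).

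**Figure D5:**
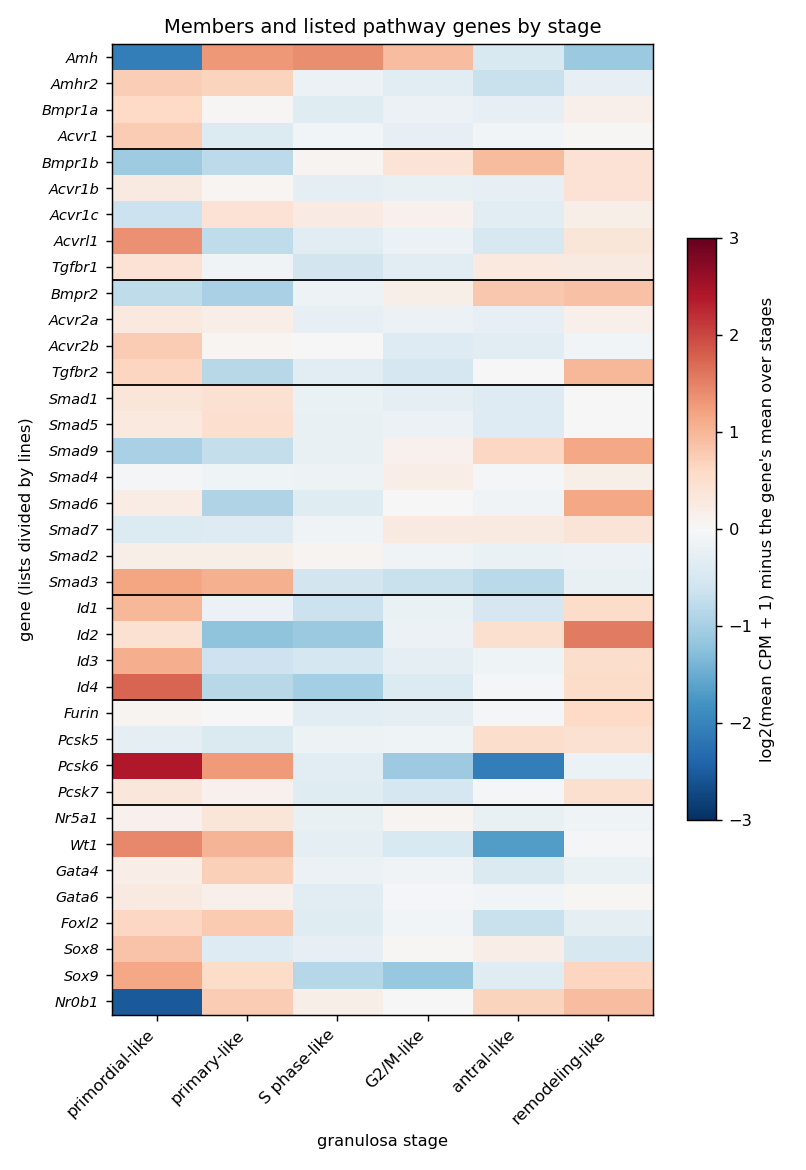
Colour gives log2(mean CPM + 1) of each member and pathway gene (rows, lists divided by lines) in each granulosa stage (columns), minus the mean of that gene over the stages. Wt1, Pcsk6 and Smad3 are lower in antral-like than in primary-like cells, Bmpr2 and Bmpr1b are higher, and Id3 is highest in primordial-like cells.

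Genes with a course like that of each member were ranked over 28 granulosa groups, each a stage in 1 library with at least 30 cells, by the Pearson correlation of log2(CPM + 1). The 28 points come from 5 libraries and share their depth and free RNA, so the values describe likeness alone. For Amh the closest were Rabl6 (r = 0.905), Dnajc11 (0.905), Parp1 (0.876), Akr7a5 (0.875) and Hspa9 (0.863). After the mean of each library was removed they were Hsd11b2 (0.944), Vcan (0.937), Rabl6 (0.924), Sf3a2 (0.919) and Dnajc11 (0.917). The neighbour Sf3a2 thus entered the list for Amh. For Amhr2 the closest were Crip3 (0.965), Hpcal1 (0.961), Ccdc170 (0.950), Dtnb (0.947) and Tmem184a (0.942). For Bmpr1a the first was Tnfsf12 (0.943) and for Acvr1 it was Rnf113a2 (0.857).

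The genes above were picked for the highest r with a member, so r between members cannot be judged against theirs. Over the same 28 groups Amh and Amhr2 had r = 0.23, Amh and Bmpr1a -0.63, Amh and Acvr1 -0.68, and Amhr2 and Bmpr1a 0.52. Among the listed transcription factors, Wt1 and Amhr2 had r = 0.91 with or without the library means. Gata4 and Amhr2 had 0.74 and 0.76, and Foxl2, which maintains granulosa identity, and Amhr2 had 0.69 and 0.89. The other listed factors were lower with Amhr2. Nr5a1, the SF-1 gene, had 0.53 and 0.59, Gata6 0.48 and 0.59, and Sox9 0.50 and 0.52. Sox8 had 0.18 and 0.0005, and Nr0b1 -0.39 and -0.34. With Amh the values were 0.07 and 0.01 for Wt1, 0.32 and 0.36 for Gata4, and 0.02 and 0.11 for Foxl2.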

How the data were processed

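The deposited matrices hold raw UMI counts as whole numbers per gene and cell, which the authors made with Cell Ranger on GRCm38, with versions 3.1.0 (2 to 4 wk) and 6.0.1 (5 and 6 wk) per the file headers. The submitters' processing notes list Cell Ranger 3.1.0 and Seurat 4.1.0. The members and lists were chosen with earlier results of these data known.

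All deposited cells were log-normalized and integrated across the libraries in Seurat 5.3.0 under R 4.3.3, with 2000 variable genes, 30 components and a resolution of 1. Granulosa-like and mesenchymal cells were clustered again. A cluster was named from at least 3 detected markers, and the limits for leaving a cluster unnamed were set after the clusters were seen. No cluster qualified as secondary-like, so planned comparisons with that stage used primary-like cells instead. Scrublet in scanpy 1.11.5 called 2.08% to 5.01% of cells per library as doublets, which were kept except in an alternative.

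Levels are CPM of summed UMIs with exact Poisson intervals at 95%. Ratios carry an exact conditional interval. SD is over libraries, and intervals and the floor of 3 counts cover counting error only. A gene entered a comparison with at least 200 UMIs and was called when at least 2-fold different in every library. Named genes are the members, the 33 listed genes and the 5 genes most like each member. Calling was tested on simulated data for antral-like over primary-like cells (10849 genes), where 97 of 99 genes with a 4-fold change, 0 of 101 with 1.5-fold and 0 of 10649 unchanged genes were called. The simulated counts had Poisson error and the same fold in every library. The test thus covers counting error and not the spread between libraries or in how clusters are drawn. Python 3.11.15, numpy 2.4.6, pandas 2.3.3, scipy 1.17.1 and matplotlib 3.10.9 were used.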

Additional observations from a re-analysis of the deposited data

Results flagged for a closer look

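In these results the level at 2 wk over that at 5 wk lay on opposite sides of 1 in 2 cell classes, with 1 library per age, so that the differences were not tested. Amhr2 was at 1.58 in granulosa-like cells but at 0.437 in theca-like, 0.684 in surface epithelial-like and 0.231 in lymphatic endothelial-like cells. The lymphatic value rests on 2 UMIs at 2 wk and 20 at 5 wk. Theca-like cells at 2 wk, with 38.2 CPM, were below hematopoietic-like cells with 59.1 CPM. Bmpr1a was at 1.07 in granulosa-like cells but at 0.833 in stromal-like, 0.803 in smooth muscle-like and 0.741 in surface epithelial-like cells. Amh was at 1.86 in granulosa-like and at 0.0825 in lymphatic endothelial-like cells, where the 2 wk library held 1 UMI of it.

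Signal was also present in cells that no comparison used. The cells of unnamed clusters had at least 128 CPM of Amh in every library, where the lowest value of hematopoietic-like cells was 24.2 CPM. Their lowest Amhr2 value was 121 CPM, where hematopoietic-like cells had 25 CPM. Of these 7917 cells, 7161 were in clusters with few UMIs per cell and 756 in a cluster mostly called doublets.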

How the results depend on the processing

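No paired analysis was possible because each age is 1 library and no replicate numbers are shared. Of 25 results under the alternatives that did not leave out a library, 120 values stayed close to their first value, 20 moved and 1 reversed, and the cause was not tested. At a resolution of 0.6 no primordial-like cluster was found, the mean log2 ratio of Amh in antral-like over primary-like cells was -1.05, and the 2 wk over 5 wk ratios were 1.15 for Amh in primary-like, 1.64 for Amh and 1.98 for Amhr2 in antral-like cells. With the libraries merged without integration, the log2 ratio of Amh was 1.30 for primary-like over primordial-like and -3.04 for remodeling-like over antral-like cells. There the 2 wk over 5 wk ratios in primary-like cells were 1.12 for Amh and 0.808 for Amhr2, that of Amh in antral-like cells reversed to 0.107, and 86.0% of primary-like cells had both genes. With the members among the clustering genes the Amh values were 1.73 (primary-like over primordial-like, log2) and 1.96 (2 wk over 5 wk, antral-like). Without doublets Amh in granulosa-like over stromal-like cells was 5.81 on the log2 scale. A mean over cells gave 2.53 for Amh in antral-like cells at 2 wk over 5 wk. A total without ribosomal and mitochondrial genes gave 0.75 for Bmpr1a in smooth muscle-like over early theca-like cells. Thinned cells with both genes were 55.6% of primary-like and 14.2% of antral-like cells. Listed genes lower in primary-like than primordial-like cells numbered 4 from 50 UMIs and 4 at 1.5-fold, where 5 were lower in antral-like and 4 higher in remodeling-like cells.

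Leaving out each library in turn gave these log2 ranges. For Amh they were 4.93 to 5.33 (granulosa-like over stromal-like), 3.32 to 4.08 (primary-like over primordial-like), -2.19 to -1.78 (antral-like over primary-like) and -1.20 to -0.83 (remodeling-like over antral-like). For Amhr2 they were 4.49 to 4.87 (granulosa-like) and 5.07 to 5.55 (surface epithelial-like, both over stromal-like), -0.18 to 0.04 (primary-like over primordial-like), -1.46 to -1.25 (antral-like over primary-like) and 2.14 to 2.72 (late over early theca-like). The direction of Amhr2 between primary-like and primordial-like cells was thus not fixed. For Bmpr1a they were 0.99 to 1.10 (smooth muscle-like over granulosa-like) and 0.87 to 0.96 (over early theca-like), and for Acvr1 1.56 to 1.73 (stromal-like over granulosa-like) and 0.75 to 0.85 (Hoxd9-like over early theca-like). The shares with both genes ran from 92.9% to 95.3% and from 42.3% to 51.4%. Listed genes higher numbered 0 to 1, 2 to 3 and 0 to 2 in the order of the report's stages, and those lower 2 to 3, 3 to 5 and 0 to 0. Small groups limit the depth, as in primordial-like cells with 19, 9 and 4 UMIs of Acvr1.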

Other observations

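Oocyte transcripts were rare in the named granulosa groups, where the germ cell markers summed to at most 4.73 CPM. They reached 1285 CPM in the unnamed granulosa clusters at 5 wk, where Zp3, an egg coat gene, stood at 712.5 CPM through 3 of 527 cells. Over all cells of the unnamed granulosa clusters Amh was at 342 CPM or more in every library, with a mean of 537 CPM ± 229 (SD, n = 5), and Amhr2 at a mean of 275 CPM ± 69.96.

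An antral-like pair of clusters overlapped in the hormone and was not separated, with a mean log2 difference of 0.64 ± 0.89 (SD, n = 5). The cluster led by Vpreb3 had a mean Amh level of 239 CPM ± 150 (SD, n = 5) and the one with Inhba, Nppc and Cyp19a1, the aromatase gene, 181, 249, 443, 47.9 and 40.9 CPM, below the first in 4 of 5 libraries.

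Among pericyte-like cells, which wrap small vessels, Bmpr1a was steady at a mean of 79.8 CPM ± 2.57 (SD, n = 5), while blood endothelial-like cells had 22.7 CPM ± 17.3 and lymphatic endothelial-like cells 9.97 CPM ± 4.64 (SD, n = 4). Acvr1 had means of 20.6 CPM ± 4.11 in pericyte-like, 31.5 CPM ± 8.99 in blood endothelial-like and 36.0 CPM ± 14.9 in lymphatic endothelial-like cells, and the endothelial classes were not separated, since lymphatic endothelial-like cells were higher in 2 of 4 libraries.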
